A study of Homo sapiens with 8 samples.

Results

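The genes described here are the ligands and receptors of axon guidance in MP38, a BAP1-mutant uveal melanoma (UM) cell line. They were taken from the table of raw read counts by symbol: all semaphorins of classes 3 to 7, the plexins, neuropilins NRP1 and NRP2, the SLIT and ROBO genes, the netrins NTN1 to NTN5, the UNC5 receptors, DCC, the ephrins and the EPH receptors. This gave 69 genes of 35238 symbols, 31 in the semaphorin-plexin system, 22 in the ephrin-eph system, 9 in the netrin system and 7 in the slit-robo system. MP38 cells were exposed for 24 h to 40 nM romidepsin, to 40 nM quisinostat, to 1200 nM mivebresib or, as the control, to 0.1% DMSO, the vehicle of the drugs, with 2 bulk RNA-seq libraries in each group. Romidepsin, a cyclic depsipeptide, and quisinostat, a hydroxamic acid, are histone deacetylase (HDAC) inhibitors, whereas mivebresib blocks the bromodomains of the BET proteins. All groups share the BAP1 mutation of a single line, and per the study's methods the 2 libraries of a group came from wells of that line, at doses picked for a change in cell shape without much cell death. The p-values thus measure only the spread between wells, which may be technical.

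Axon guidance cues are secreted or membrane-bound proteins that attract or repel growing axons and migrating cells through receptors on the growth cone. Semaphorins signal through plexins, with neuropilins as co-receptors of the secreted class 3 members. Slits repel through ROBO receptors, netrins attract through DCC and repel through UNC5 receptors, and ephrins and EPH receptors signal in both directions at cell contacts. Melanocytes descend from the neural crest, whose migration uses the same cues, and in tumors several of these genes are known for roles in vessel growth and invasion.

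Total counts ran from 28483235 to 29359024 per library. Of the 69 genes, 61 passed the filter on low counts and were tested among 15085 genes with edgeR's quasi-likelihood test. The other 8, EPHA3, EPHA6, UNC5C, SEMA3E, SEMA5B, SLIT1, ROBO2 and ROBO4, had fewer than 10 counts in every library, and UNC5C had none. A gene is said to have risen or fallen where its Benjamini-Hochberg adjusted p was below 0.05. The control libraries were the least alike for these genes: the median absolute difference between replicates was 0.442 on the log2 scale over the tested members against 0.23 over all genes tested, and 49 of 61 members were higher in control replicate 2. Each drug group stayed between 0.161 and 0.173.

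In untreated MP38 cells the semaphorin receptors stood highest per length. As mean RPKM, which scales reads to exon length and library size, PLXNC1, the receptor of SEMA7A, had the highest level of the members at 70.4, followed by PLXNB2 at 32.5, the co-receptor NRP2 at 26.6 and EPHA2, a receptor tyrosine kinase for ephrin-A ligands, at 20.3. PLXNC1 CPM, counts scaled to library sizes adjusted by TMM factors, were 570 and 822 in the control, and PLXNB2 CPM 187 and 284, so each gene's own replicates spread widely. The highest ligands per length were NTN4 at 9.38, EFNA1 at 7.75, SEMA6B at 6.11, SEMA3C at 5.79 and SLIT3 at 5.74 RPKM, neighbours whose order is within that spread. The ROBO and UNC5 receptors were low, with ROBO3 at 0.289, ROBO1 at 0.199 and UNC5B at 0.738 RPKM.

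Romidepsin raised 12 of the 61 tested members and lowered 1, quisinostat raised 34 and lowered 1, and mivebresib raised 21 and lowered 16. Of all 15085 tested genes, romidepsin raised 15.2% and lowered 15.8%, quisinostat raised 28.0% and lowered 25.1%, and mivebresib raised 22.2% and lowered 24.1%. The members' own shares were 19.7% and 1.64% with romidepsin, 55.7% and 1.64% with quisinostat, and 34.4% and 26.2% with mivebresib. The share raised by romidepsin and the share lowered by mivebresib thus lay near the background. Past a log2 fold change (FC) of 1.5, the study's threshold, romidepsin raised 0 members, quisinostat 22 and mivebresib 10, against 3.77%, 11.2% and 3.96% of all genes. Downward past that threshold were 0, 0 and 5 members, against 0.312%, 1.03% and 4.36% of all genes. The 3 comparisons share the control libraries. Without control replicate 2 romidepsin raised 28 members; without control replicate 1 it lowered 7 and quisinostat lowered 10. EPHA7, EPHA10, EPHB6, UNC5D and SEMA3G had under 10 counts in both control libraries and entered the test through a drug group. A rise was thus a condition of their being tested. Among the other 56 members quisinostat raised 30 and mivebresib 18. Past 1.5, the 22 raised by quisinostat include EPHA7, EPHA10, EPHB6 and UNC5D, and the 10 raised by mivebresib include EPHA10, UNC5D and SEMA3G.

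**Figure D1:**
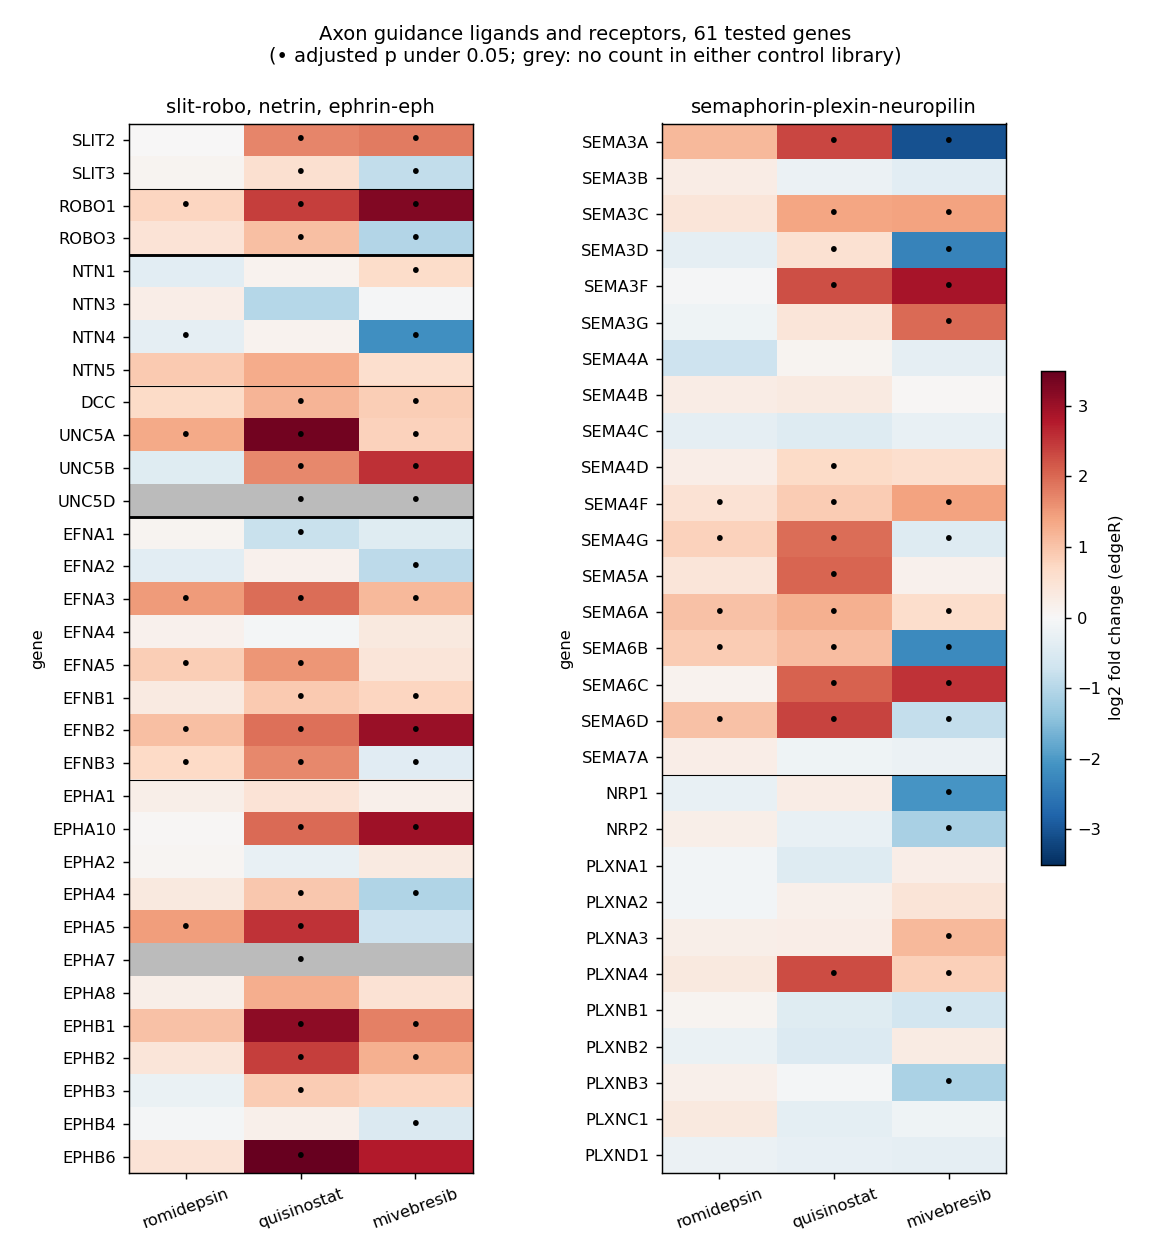
Each cell is the edgeR log2 fold change of a tested member against the control (color, capped at 3.5 either way) for 1 of the 3 drugs, with a dot where the adjusted p was below 0.05; EPHA7 and UNC5D, with no count in either control library, are grey. The quisinostat column is mostly red, with EFNA1 as the 1 member that fell, while the mivebresib column holds 21 rises and 16 falls.

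The median log2 FC of the tested members was 0.23 for romidepsin, 0.91 for quisinostat and 0.32 for mivebresib, values that held with EPHA7 and UNC5D at their lower bounds or, for romidepsin, 0.22 without them. Over all genes the medians were -0.01, 0.00 and 0.01. Scaling by library size alone moved the quisinostat median of all genes to 0.20 and that of the members to 1.11.

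The promoters of 59 of the 69 members were matched by symbol in RefSeq (GRCh38.p14), and the 250 bases before the start were searched. For 26 of these 59, the 30 bases after the RefSeq start lay in a transcript of the gene in GENCODE 29. The start position of the other windows was not borne out by this check. EFNB3, EPHA10, NTN1, NTN3, UNC5B, UNC5D, NRP1, SEMA3A, SEMA6A and SEMA6B were not matched. The letters GGGCGG (the GC box), CACGTG (the E-box bound by MITF and MYC), TGACTCA (an AP-1 site) and TATAAA (the TATA box) were looked for on both strands, with overlapping matches counted. The GC box occurred in 78.4% of the 51 matched tested members and in 66.6% of the 10920 matched promoters of all tested genes. CACGTG occurred in 5.88% of the members against 8.72%, TATAAA in 1.96% against 5.45%, and TGACTCA in 0% against 2.56%. Median GC content was 67.6% in the members and 64.8% in all tested genes. Among members that rose with quisinostat, 20 of 27 held a GC box, and among tested members that did not rise, 20 of 24. The windows shown are of 3 genes that rose with quisinostat and mivebresib (SLIT2, ROBO1 and SEMA3F) and of 2 that fell with mivebresib (NTN4 and SEMA3D), picked because the results turn on them. Each is the 250 bases before the RefSeq start, on the gene's strand, with GC boxes in capitals.
SLIT2: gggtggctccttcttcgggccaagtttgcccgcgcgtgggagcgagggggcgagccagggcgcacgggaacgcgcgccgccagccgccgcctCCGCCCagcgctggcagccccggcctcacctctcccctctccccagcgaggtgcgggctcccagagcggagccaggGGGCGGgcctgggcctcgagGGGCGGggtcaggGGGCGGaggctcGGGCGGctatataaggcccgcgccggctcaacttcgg
ROBO1: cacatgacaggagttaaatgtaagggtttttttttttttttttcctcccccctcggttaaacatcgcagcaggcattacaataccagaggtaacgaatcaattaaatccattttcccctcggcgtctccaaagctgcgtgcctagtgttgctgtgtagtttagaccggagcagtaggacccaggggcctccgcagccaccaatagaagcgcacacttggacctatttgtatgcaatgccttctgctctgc
SEMA3F: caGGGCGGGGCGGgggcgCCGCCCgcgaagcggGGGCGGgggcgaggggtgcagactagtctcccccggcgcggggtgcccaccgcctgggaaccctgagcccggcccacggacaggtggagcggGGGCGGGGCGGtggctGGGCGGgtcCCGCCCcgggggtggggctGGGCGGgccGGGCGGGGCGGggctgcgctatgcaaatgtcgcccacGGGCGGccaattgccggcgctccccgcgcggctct
NTN4: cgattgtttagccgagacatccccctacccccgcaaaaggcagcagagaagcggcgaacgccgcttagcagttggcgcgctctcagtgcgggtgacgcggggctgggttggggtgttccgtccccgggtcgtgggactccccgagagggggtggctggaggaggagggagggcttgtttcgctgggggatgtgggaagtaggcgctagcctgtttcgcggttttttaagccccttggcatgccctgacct
SEMA3D: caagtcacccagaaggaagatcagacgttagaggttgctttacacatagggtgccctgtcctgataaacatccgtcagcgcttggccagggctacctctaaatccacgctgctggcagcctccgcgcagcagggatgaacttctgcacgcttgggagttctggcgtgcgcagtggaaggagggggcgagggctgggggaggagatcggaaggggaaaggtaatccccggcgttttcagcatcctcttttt
They lie at chr4:20251655-20251904 (plus strand), chr3:79767999-79768248 (minus), chr3:50154808-50155057 (plus), chr12:95791156-95791405 (minus) and chr7:85187057-85187306 (minus). The SLIT2 window ends well upstream of the SLIT2 start in GENCODE, at 20253260. SEMA3F held 12 GC boxes and SLIT2 5, whereas ROBO1, NTN4 and SEMA3D held 0. Over all matched members, a GC box occurred in 12 of 16 that rose with mivebresib (75%) and in 7 of 12 that fell (58.3%). GC content ran from 48.0% in ROBO1 to 82.0% in SEMA3F.

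In the slit-robo system, SLIT2 and its receptor ROBO1 rose together with quisinostat and mivebresib, while SLIT3 and ROBO3 rose with quisinostat and fell with mivebresib. SLIT2, a secreted repellent (chr4:20253260-20620561, GRCh38), had CPM of 5.53 and 7.38 in the control, 6.29 and 6.68 with romidepsin, 19.2 and 23.1 with quisinostat, and 19.9 and 25.4 with mivebresib. The romidepsin values lay inside the control range, and both other groups lay above it without overlap. The rise was 3.28-fold with quisinostat (log2 FC 1.71 ± 0.17 SE, adjusted p = 8.52e-05) and 3.51-fold with mivebresib (1.81 ± 0.18, adjusted p = 8.18e-05). Between those drugs SLIT2 differed by a log2 FC of 0.10, with a 95% interval from -0.27 to 0.47. ROBO1 (chr3:78597240-79767815) had CPM of 1.91 and 2.41 in the control, 3.67 and 3.65 with romidepsin, 11.2 and 11.8 with quisinostat, and 19.3 and 21.3 with mivebresib. The groups ranked in that order with no overlap, and each step held in a direct test: log2 FC 0.76 ± 0.16 for romidepsin over control, 1.65 ± 0.13 for quisinostat over romidepsin and 0.82 ± 0.12 for mivebresib over quisinostat (adjusted p = 0.0074, 0.00011 and 0.00039). The romidepsin step was lost under limma on the quantile-normalized score and with same-numbered libraries as pairs in a fit of 4 libraries.

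SLIT3 CPM were 64.4 and 99.2 in the control, 110 and 128 with quisinostat, and 43.6 and 46.0 with mivebresib, so the drug groups lay on either side of a wide control pair. Its rise with quisinostat was 1.46-fold and was lost when the 4 libraries were fitted alone or when control replicate 1 or any quisinostat or mivebresib library was left out. Its fall with mivebresib was 1.83-fold, and mivebresib against quisinostat gave a log2 FC of -1.42 ± 0.19. ROBO3, a receptor that modulates slit responses at the midline, had CPM of 2.16 and 1.90 in the control, 4.24 and 4.20 with quisinostat, and 1.13 and 0.863 with mivebresib. The 3 groups did not overlap. Per length, ROBO1 made up 34.1% and 42.2% of the ROBO transcripts in the control libraries, 62.2% and 64.1% with quisinostat, and 91.7% and 93.4% with mivebresib. The SLIT2 share of the slits went from 11.2% and 9.84% in the control to 40.1% and 44.7% with mivebresib. These shares are ratios within a library and do not depend on the scaling between libraries.

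**Figure D2:**
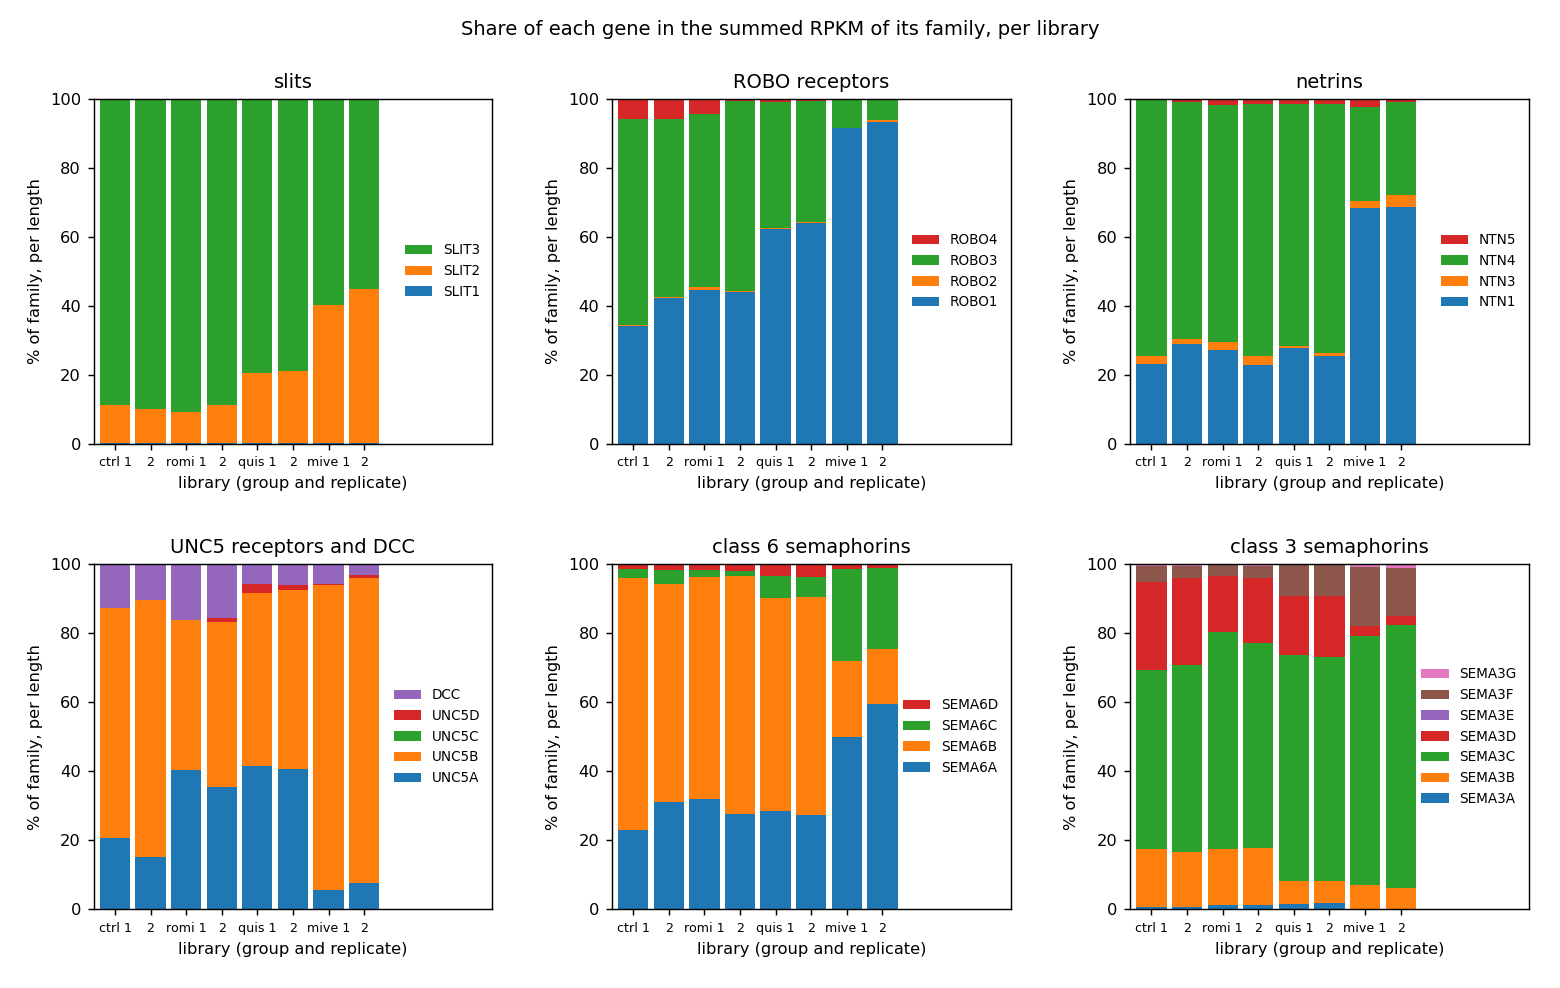
Stacked bars give each gene's percentage of the summed RPKM of its family in each of the 8 libraries (2 per group). The mivebresib libraries stand apart in ROBO1 (91.7% and 93.4%), NTN1 (68.2% and 68.6%) and SEMA6B (22.0% and 15.8%, against 73.1% and 63.1% in the control).

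Among the netrins, mivebresib lowered NTN4 and raised NTN1, and the netrin receptors DCC, UNC5A and UNC5B rose with quisinostat and with mivebresib, against 28.0% and 22.2% of all genes that rose. UNC5D rose with both as well, but entered the test through its counts with quisinostat. NTN4, a laminin-like secreted netrin of basement membranes (chr12:95657807-95791152), had CPM of 37.5 and 40.7 in the control, 32.1 and 31.3 with romidepsin, 39.7 and 45.3 with quisinostat, and 9.07 and 8.63 with mivebresib. The mivebresib values were far below every other library. The fall was 4.41-fold (log2 FC -2.14 ± 0.10, adjusted p = 2.8e-06). With romidepsin NTN4 was the 1 member that fell, by 1.23-fold (adjusted p = 0.038), and that call was lost under DESeq2, under other scalings and filters, and when any library but control replicate 1 was left out. NTN1, the founding chemoattractant, had CPM of 17.9 and 26.2 in the control and 34.9 and 33.8 with mivebresib, a 1.56-fold rise (adjusted p = 0.017) lost without either mivebresib library. Per length NTN1 was 23.1% and 28.9% of the netrins in the control and 68.2% and 68.6% with mivebresib.

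UNC5B, a repellent netrin receptor also known from vessel sprouting, had CPM of 4.18 and 5.92 in the control, 3.67 and 3.82 with romidepsin, 15.3 and 17.2 with quisinostat, and 27.8 and 31.2 with mivebresib. The romidepsin libraries lay just below the control and those of the other drugs lay above it in 2 separate steps. It rose 3.22-fold with quisinostat and 5.85-fold with mivebresib (log2 FC 1.69 ± 0.16 and 2.55 ± 0.16, adjusted p = 5.6e-05 and 9.1e-06). UNC5A went the other way between the drugs, with CPM of 0.815 and 0.767 in the control, 2.16 and 1.79 with romidepsin, 8.04 and 8.53 with quisinostat, and 1.13 and 1.65 with mivebresib. Its quisinostat rise was 10.4-fold, and mivebresib over quisinostat gave -2.57 ± 0.20. The 1.76-fold mivebresib rise of UNC5A was lost under DESeq2 and limma-voom and without either control library, either quisinostat library or mivebresib replicate 2. UNC5D was at 0 in both control libraries and at 42 and 27 counts with quisinostat, at least 10.1-fold higher by a floor of 3 counts per library, and at 4 and 10 counts with mivebresib, at least 2.35-fold higher, a call lost without mivebresib replicate 2. DCC, the attractive netrin receptor, rose 2.27-fold with quisinostat, from CPM of 1.52 and 1.61 to 3.32 and 3.79, and 1.83-fold with mivebresib, the latter lost without control replicate 1 or mivebresib replicate 1.

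Of the 8 ephrins, the membrane-bound ligands of EPH receptors, romidepsin raised 4, quisinostat raised 5 and lowered EFNA1, and mivebresib raised 3 and lowered 2. These rises are 50%, 62.5% and 37.5% of the ephrins, against 15.2%, 28.0% and 22.2% of all genes, and the mivebresib falls are 25%, near the 24.1% of all genes. EFNB2, a transmembrane ligand of arterial vessels (chr13:106489731-106535662), had CPM of 0.886 and 1.17 in the control, 2.27 and 1.96 with romidepsin, 3.61 and 4.17 with quisinostat, and 8.45 and 8.42 with mivebresib. As with ROBO1, the groups rose in that order with no overlap. The mivebresib rise was 8.19-fold (log2 FC 3.03 ± 0.19, adjusted p = 9.1e-06), and mivebresib exceeded quisinostat by 1.11 ± 0.15. Without romidepsin replicate 1 the romidepsin rises of EFNB2 and EFNA5 were lost, and without control replicate 1, mivebresib replicate 1 or other libraries so was the mivebresib fall of EFNA2. EFNA3, a lipid-anchored ligand of EPHA receptors, had CPM of 6.94 and 5.81 in the control and was raised by each drug, to 17.1 and 18.8, 24.4 and 25.1, and 13.9 and 14.4 in the same order of drugs. EFNB3 CPM were 12.5 and 13.3 in the control, 20.9 and 21.0 with romidepsin, 41.8 and 41.4 with quisinostat, and 8.96 and 10.5 with mivebresib, so quisinostat and mivebresib moved it in opposite directions. Its 1.33-fold mivebresib fall was lost without mivebresib replicate 1 and with the 4 libraries alone, whereas mivebresib over quisinostat was -2.10 ± 0.10. EFNA1 fell 1.73-fold with quisinostat, from 450 and 641 counts to 380 and 336, and kept that call under each alternative fitted to the counts. Per length the ephrin-A mixture turned from EFNA1 (38.6% and 52.9% in the control) to EFNA3 (52.7% and 54.3% with quisinostat).

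Quisinostat raised 8 of the 12 tested EPH receptors, mivebresib raised 3 and lowered 2, and romidepsin raised EPHA5 alone. Without EPHA7, EPHA10 and EPHB6, which entered the test through a drug group, quisinostat raised 5 of 9 (55.6%, against 28.0% of all genes), and mivebresib raised 2 and lowered 2 (22.2% each, at the background of 22.2% and 24.1%). EPHA5, a receptor for ephrin-A ligands in the nervous system, had CPM of 0.531 and 0.365 in the control, 1.24 in both romidepsin libraries, 2.72 and 2.48 with quisinostat, and 0.220 and 0.324 with mivebresib. The HDAC inhibitor groups stood above the control and the mivebresib libraries below it. The quisinostat rise was 5.75-fold (log2 FC 2.52 ± 0.28, adjusted p = 0.00012), the mivebresib difference did not pass (-0.71 ± 0.39, adjusted p = 0.19), and mivebresib over quisinostat was -3.24 ± 0.30. EPHA4, which binds ephrins of both classes, had CPM of 7.26 and 11.7 in the control, 18.8 and 17.7 with quisinostat, and 4.28 and 4.78 with mivebresib. It rose 1.92-fold with quisinostat and fell 2.09-fold with mivebresib (adjusted p = 0.0038 and 0.0043), so the 2 groups lay on opposite sides of the control range. EPHB1 and EPHB2, receptors for ephrin-B ligands, rose 8.74-fold and 5.34-fold with quisinostat and 3.41-fold and 2.38-fold with mivebresib, where EPHB1 was lost without mivebresib replicate 2. EPHA7 went from 0 counts in the control to 39 and 15 with quisinostat, at least 7.94-fold higher, and EPHB6, which lacks kinase activity, from 0 and 2 to 43 and 45 counts, a ratio of 38.8 with a 95% counting interval from 10.4 to 326. Counting error only is covered by that interval. EPHA10 rose 3.92-fold with quisinostat and 7.87-fold with mivebresib from CPM of 0.213 and 0.292, the former lost without quisinostat replicate 2. Of the abundant receptors, EPHA2 CPM were 70.4 and 98.7 in the control and 65.8 to 107 elsewhere, with no drug past the test against the control, although without control replicate 1 it was lower with quisinostat (log2 FC -0.49) and without control replicate 2 higher with mivebresib (0.58). EPHB4 fell 1.43-fold with mivebresib. The quisinostat counts above include EPHB3 (1.85-fold), whose rise was lost under DESeq2 and without either control or either quisinostat library.

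Quisinostat raised 12 of the 18 tested semaphorins, mivebresib raised 6 and lowered 5, and romidepsin raised 5. Without SEMA3G, which entered the test through a drug group, the shares that rose were 70.6%, 29.4% and 29.4% in that order of drugs, against 28.0%, 22.2% and 15.2% of all genes, and the share that fell with mivebresib was 29.4%, against 24.1%. Class 3, the secreted semaphorins, held genes that moved apart. SEMA3F (chr3:50155045-50189075), a ligand of NRP2, had CPM of 2.02 and 2.12 in the control, 2.06 and 1.93 with romidepsin, 9.62 and 10.2 with quisinostat, and 16.1 and 14.8 with mivebresib. With romidepsin it stayed at the control level, and the other drugs raised it 4.78-fold and 7.45-fold (log2 FC 2.26 ± 0.13 and 2.90 ± 0.13, adjusted p = 4.7e-06 and 2.3e-06). SEMA3A (chr7:83955777-84492724), a repellent acting through NRP1, had 17 and 18 counts in the control, 42 and 39 with romidepsin, 88 and 112 with quisinostat, and 4 and 0 with mivebresib. No group overlapped another. It rose 5.02-fold with quisinostat and fell 8.25-fold with mivebresib (adjusted p = 0.00084 and 0.0069), while the romidepsin difference missed the threshold (log2 FC 1.14 ± 0.40, adjusted p = 0.059). SEMA3D CPM were 18.7 and 25.8 in the control, 30.5 and 34.4 with quisinostat, and 4.35 and 4.39 with mivebresib, a 5.08-fold fall, while its 1.46-fold quisinostat rise was lost without quisinostat replicate 2. SEMA3C, the most abundant class 3 member per length, rose 2.60-fold with quisinostat and 2.68-fold with mivebresib, to CPM of 88.2 to 106 from 29.4 and 43.2.

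Class 6 semaphorins are transmembrane ligands of class A plexins, and their mixture turned over with mivebresib. SEMA6B (chr19:4542593-4559808) had CPM of 27.5 and 26.4 in the control, 49.0 and 50.4 with romidepsin, 54.0 and 60.4 with quisinostat, and 6.91 and 4.67 with mivebresib. Both HDAC inhibitor groups lay above the control and the mivebresib libraries far below it. The fall was 4.66-fold (log2 FC -2.22 ± 0.16, adjusted p = 1.7e-05). SEMA6C rose instead, from CPM of 1.27 and 2.27 to 11.1 and 9.24 with mivebresib (5.74-fold) and to 7.38 and 7.32 with quisinostat (4.16-fold). SEMA6A rose with all drugs, with mivebresib only while both mivebresib libraries were kept, and SEMA6D rose 5.19-fold with quisinostat and fell 1.80-fold with mivebresib, a fall lost under DESeq2 and limma-voom and without control replicate 2, either quisinostat library or mivebresib replicate 2. Its romidepsin rise was lost without romidepsin replicate 2. Per length SEMA6B was 73.1% and 63.1% of class 6 in the control and 22.0% and 15.8% with mivebresib, and SEMA6C went from 2.57% and 4.11% to 26.8% and 23.7%. SEMA5A rose 4.07-fold with quisinostat to CPM of 168 and 191, where mivebresib gave 45.9 and 51.3 against 38.0 and 50.4 in the control. In class 4, SEMA4F rose with each drug (with romidepsin not without its replicate 1), and SEMA4G rose 3.89-fold with quisinostat and fell 1.37-fold with mivebresib. The SEMA4G fall was lost under DESeq2 and limma-voom and without control replicate 2 or either mivebresib library, and 22.3% of its exon length overlaps MRPL43 on the opposite strand, so some of its counts may be shared.

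Romidepsin raised and lowered 0 of 9 plexins, against 15.2% and 15.8% of all genes, and quisinostat raised PLXNA4 alone (11.1%, against 28.0%). PLXNA1 and PLXNB2 narrowly missed a fall with quisinostat (log2 FC -0.45 and -0.48, edgeR adjusted p = 0.058 and 0.054). In sign alone, 3 of the 9 plexins were higher with quisinostat. The mivebresib shares, 22.2% in each direction, were at the background of 22.2% and 24.1%: it raised PLXNA3 and PLXNA4 and lowered PLXNB1 and PLXNB3, PLXNB1 not without control replicate 2 or either mivebresib library. PLXNA4, a class A plexin, had CPM of 2.30 and 3.14 in the control, 3.43 and 3.41 with romidepsin, 12.8 and 13.6 with quisinostat, and 4.68 and 5.07 with mivebresib. It rose 4.85-fold with quisinostat and 1.79-fold with mivebresib. PLXNC1 CPM ranged from 507 to 914 over all libraries and passed no comparison with the control, although without control replicate 1 it was lower with quisinostat (-0.58) and with mivebresib (-0.39). Quisinostat over romidepsin gave a log2 FC of -0.67 ± 0.17. PLXNB3 shares 20.4% of its exon length with SRPK3 on the same strand, which had at most 20 counts in any library.

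Both neuropilins fell with mivebresib. NRP1, co-receptor of SEMA3A and of VEGF, had CPM of 17.1 and 24.1 in the control, 16.9 and 17.2 with romidepsin, 23.1 and 26.6 with quisinostat, and 3.88 and 6.04 with mivebresib. NRP2 CPM were 301 and 438, 447 and 400, 293 and 330, and 160 and 178 in the same order. For each gene the mivebresib pair lay below all other libraries, and the romidepsin and quisinostat pairs each overlapped the control. The falls were 4.14-fold and 2.18-fold (log2 FC -2.05 ± 0.22 and -1.13 ± 0.17, adjusted p = 0.00015 and 0.00079). In bulk RNA, fewer cells with a transcript and less of it per cell cannot be told apart.

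**Figure D3:**
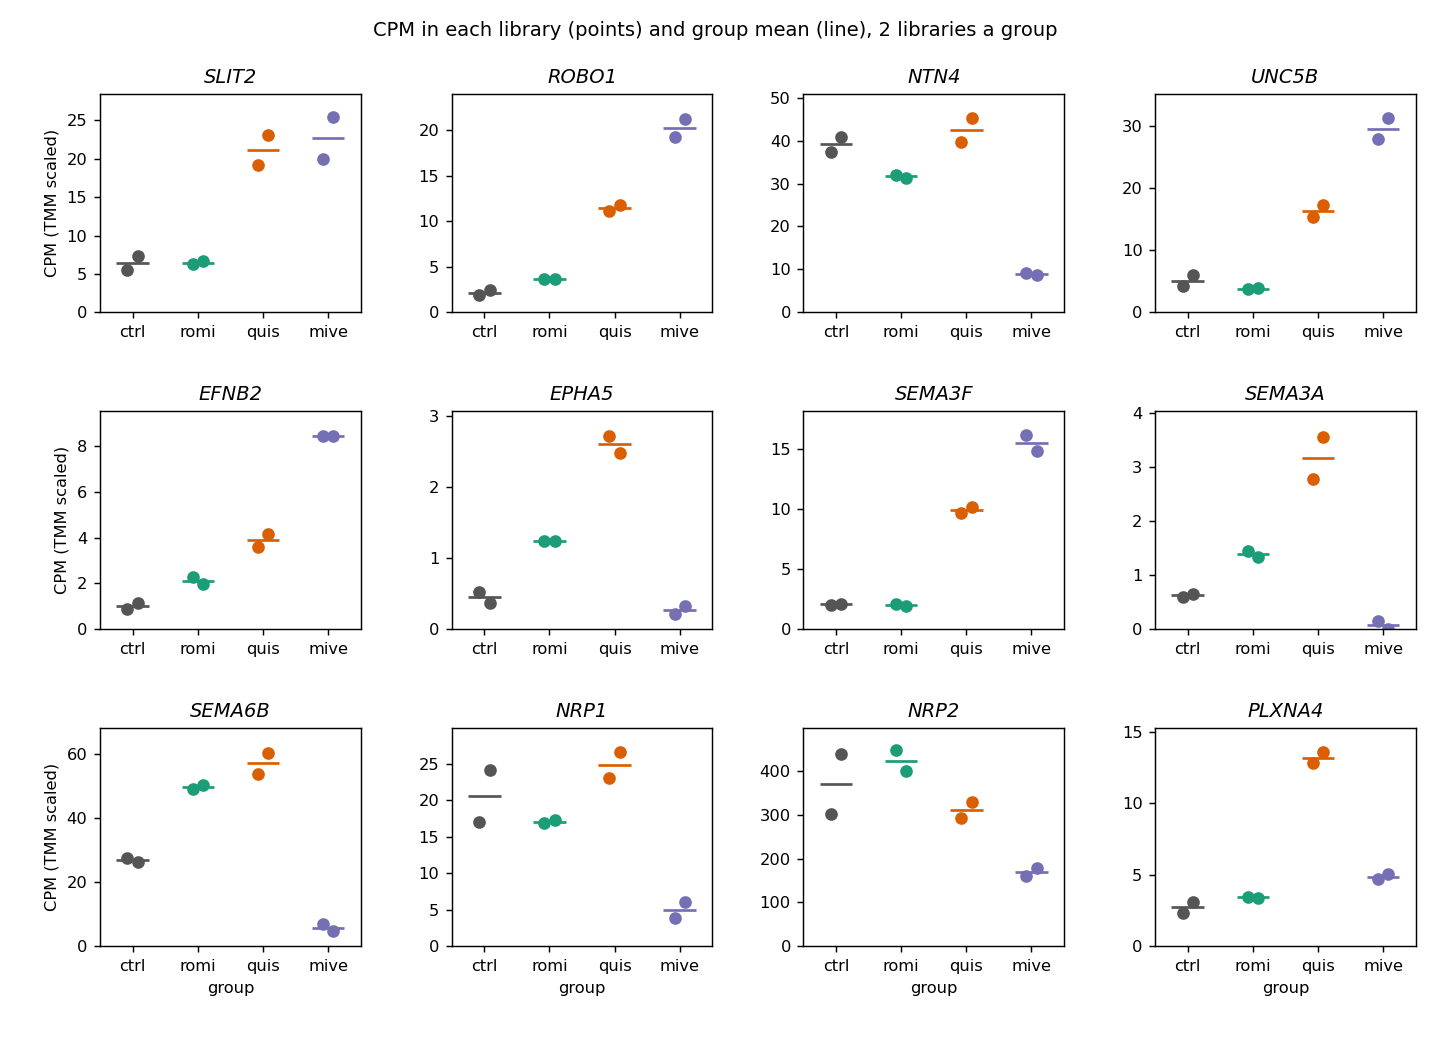
Points are the CPM (TMM scaled) of 12 members in each library, 2 per group, and lines the group means, each panel on its own linear axis from 0. SLIT2, ROBO1, UNC5B and SEMA3F are high with quisinostat and mivebresib, and NTN4, SEMA3A, SEMA6B, NRP1 and NRP2 are lowest with mivebresib.

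The HDAC inhibitors were given at the same molar dose and for the same time. The study found romidepsin more potent than quisinostat against MP38 viability, so equal doses need not be equal in effect. Quisinostat exceeded romidepsin in 31 members and fell below it in 3, against 21.0% and 14.6% of all genes tested. Past a log2 FC of 1.5 they were 14 and 0, against 5.41% and 0.179%. EPHA7, EPHA10, EPHB6 and UNC5D, which entered the test through a drug group, are among the 31 and among the 14. No share without them was computed. Without quisinostat replicate 2 the higher count was 18, without romidepsin replicate 1 it was 19, and the lower count moved between 0 and 9 over the libraries left out. UNC5B, SEMA3F and SLIT2 showed the difference most plainly, since romidepsin left them at or below the control level while quisinostat exceeded romidepsin by log2 FC of 2.11 ± 0.16, 2.31 ± 0.13 and 1.71 ± 0.17 (edgeR, adjusted p = 0.0001, 2.9e-05 and 0.00028). SEMA6A and SEMA6B, which rose with each, differed by 0.20 ± 0.17 and 0.20 ± 0.13 and did not pass. EFNA1, SEMA3B and PLXNC1 were the 3 that were lower with quisinostat.

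Mivebresib differed from quisinostat in 39 members, at doses that also differ. It was higher in 12 and lower in 27, against 26.2% and 31.5% of all genes tested (1 and 16 past a log2 FC of 1.5, against 1.73% and 12.6%), and the higher count was 7 without quisinostat replicate 1 or without mivebresib replicate 2. Against romidepsin it was higher in 18 members and lower in 21, against 23.7% and 25.2%, and past 1.5 it was 8 and 7, against 2.52% and 6.70%. These counts include genes that entered the test through a drug group. EPHA7, EPHB6 and UNC5D are among those lower than with quisinostat, also past 1.5. EPHA10 and SEMA3G are among those higher than with either HDAC inhibitor, and SEMA3G is the 1 past 1.5 over quisinostat. The 9 members that rose with an HDAC inhibitor and fell with mivebresib against the control were EFNB3, EPHA4, SEMA3A, SEMA3D, SEMA4G, SEMA6B, SEMA6D, SLIT3 and ROBO3. All 9 rose with quisinostat, so a lower level with mivebresib than with quisinostat followed from how they were picked. The log2 FC of mivebresib over quisinostat ran from -1.42 (SLIT3) to -5.37 (SEMA3A, with 4 and 0 counts under mivebresib). Another 6 rose with all 3 drugs: EFNA3, EFNB2, UNC5A, SEMA4F, SEMA6A and ROBO1. No member fell with all 3, and 16 passed the test with none of them. The shares of all tested genes with such joint calls were not computed, so these counts have no background beside them. Some of the calls, such as the mivebresib changes of UNC5A, SEMA4G and SEMA6D, were lost under DESeq2 and limma-voom.

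**Figure D4:**
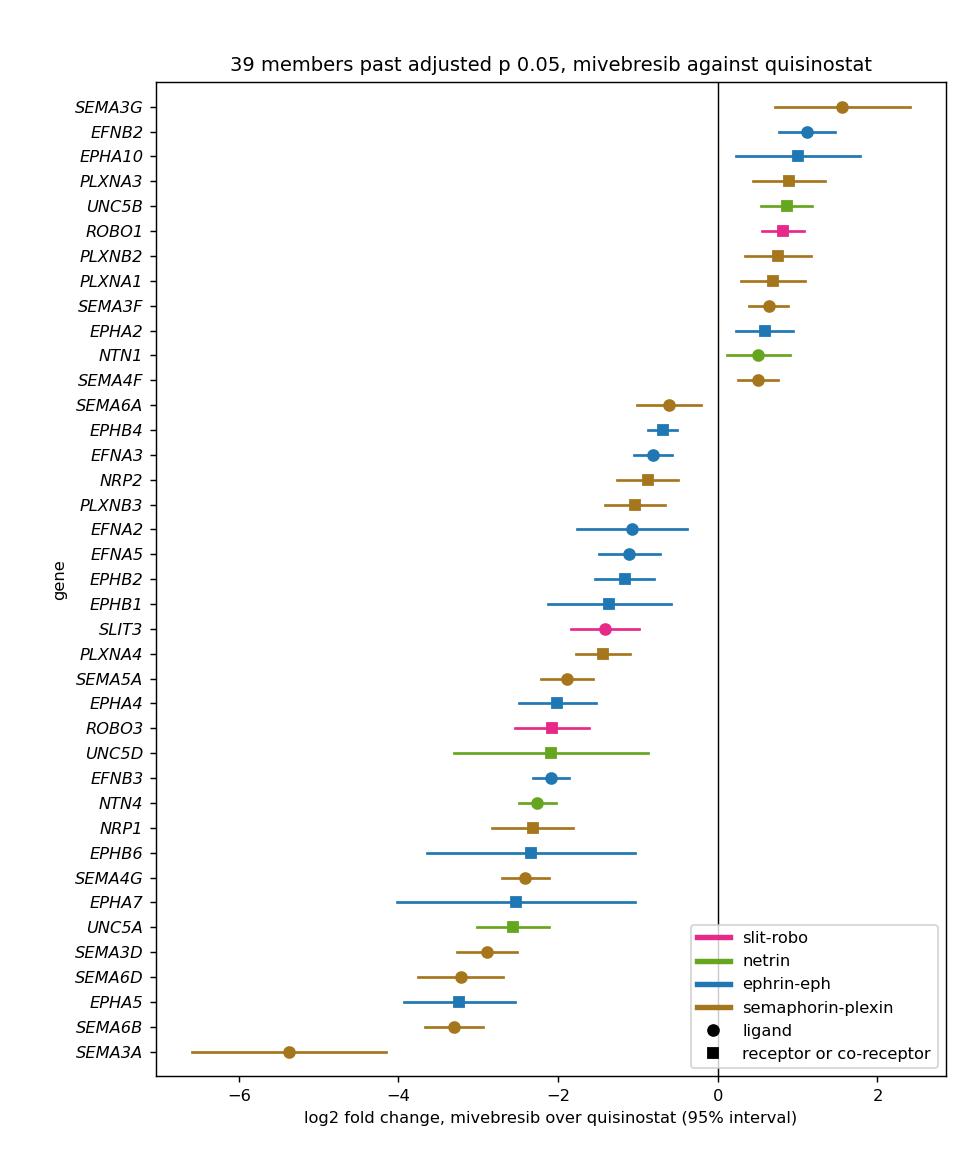
Points are log2 fold changes of mivebresib over quisinostat with 95% intervals (lines) for the 39 members past an adjusted p of 0.05, colored by system, circles for ligands and squares for receptors and co-receptors. The 12 genes above 0 include EFNB2, UNC5B, ROBO1 and SEMA3F, and the 27 below 0 run down to SEMA3A at -5.37.

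Other genes of the pathway, 24 further cues and receptors and 53 intracellular effectors, had 70 tested members. Romidepsin raised 23 and lowered 7, quisinostat raised 35 and lowered 21, and mivebresib raised 18 and lowered 17. The shares were 32.9% and 10% with romidepsin and 50% and 30% with quisinostat, against 15.2% and 15.8% and 28.0% and 25.1% of all genes, whereas with mivebresib 25.7% and 24.3% lay at the background of 22.2% and 24.1%. These shares include FLRT3, DPYSL5, NGEF, PAK3, CHL1, NTNG1, VAV3, CHN2 and RND1, which had under 10 counts in both control libraries. They entered the test through a drug group, so a rise was a condition of their being tested, and each rose with quisinostat. Of all 70 tested, 6, 16 and 4 rose past a log2 FC of 1.5, against 3.77%, 11.2% and 3.96% of all genes. Downward past it were 0, 0 and 2, against 0.312%, 1.03% and 4.36%. FLRT3, DPYSL5, NGEF and PAK3 are among the rises past 1.5 with romidepsin. They and CHL1, VAV3, CHN2 and RND1 are among those with quisinostat, and RND1 is among those with mivebresib. All of them entered the test through a drug group, and no share without them was computed. NEO1, a DCC-related receptor of netrins and RGM proteins, started from 236 and 327 counts and was raised by every drug (log2 FC 0.92, 2.34 and 1.94). FLRT3, an adhesion protein that binds UNC5 and ROBO receptors, went from 4 and 5 counts to 133 and 117 with romidepsin and 219 and 264 with quisinostat, and had 10 and 6 with mivebresib. DPYSL5, a collapsin response mediator of semaphorin signaling, rose with each drug (3.44, 5.17 and 1.36), as did TIAM1, a Rac exchange factor (1.46, 2.30 and 1.99). CHN1, a Rac GTPase-activating protein downstream of EPHA4, rose with romidepsin and quisinostat (2.08 and 3.57) and fell with mivebresib (-1.65).

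Markers of the line's own melanocytic lineage and of other cell types moved in different directions. Romidepsin raised 7 of 8 tested neuronal markers (87.5%), quisinostat 8 (100%) and mivebresib 3 (37.5%), against 15.2%, 28.0% and 22.2% of all genes. STMN2, NEFL and RBFOX3 had under 10 counts in both control libraries and entered the test through a drug group. A rise was thus a condition of their being tested, and each rose with quisinostat. The summed CPM of the list was 70.8 to 72.7 in the control, 168 to 174, 263 and 247 to 250 in the drug groups, of which INA and MAP2 made most of the counts. ELAVL4 had at most 2 counts in any library. Of 8 tested melanocytic markers, 1, 4 and 6 fell (12.5%, 50% and 75%), against 15.8%, 25.1% and 24.1% of all genes. The summed CPM of the list was 3752 to 5738 in every library. TYRP1, which passed the test for no drug, made up 67.8% to 81.8% of that sum, whereas SOX10, MITF and MLANA fell with mivebresib (log2 FC -1.93, -1.47 and -1.33) and DCT had at most 5 counts. The summed CPM of the endothelial list was 0.602 and 0.913 in the control, 3.13 to 3.71 with romidepsin, 5.16 to 5.86 with quisinostat and 1.17 to 1.40 with mivebresib. Of its 2 tested markers both rose with quisinostat and 1 with romidepsin, KDR, which made most of the sum (log2 FC 2.42 with romidepsin and 3.18 with quisinostat), while CDH5 was at 0 in every library. PECAM1, the other tested marker, had under 10 counts in both control libraries and entered the test through a drug group. The fibroblast list summed to 1.98 and 2.48 in the control, 4.24 to 5.46 with romidepsin, 8.44 to 10.9 with quisinostat and 1.28 to 1.76 with mivebresib, where 1 of 2 tested markers rose with each HDAC inhibitor and 1 fell with mivebresib. Of the leukocyte list CD3E was at 0 and CD68 carried nearly all of 61.2 to 83.3. The part of these lists in the members' changes was not tested.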

How the data were processed

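Bulk RNA-seq of MP38 cells in 4 groups of 2 libraries was used. The libraries were strand-specific per the labels. The authors processed the reads with BioJupies on hg38 (the build in the submitters' processing notes); the aligner, the annotation and the strand setting of the counting are not given in the sources used here. They deposited raw counts per gene symbol, the unit tested here, a log10 table, which the authors made as log10(CPM + 1) (it matched within 8.9e-16), and, deposited beside it, a score after quantile normalization with no stated scale; its calls used only adjusted p-values, in place of the planned log2 reading. Per-library depth was 28483235 to 29359024 counts.

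Groups came from the sample labels. Counts of all 8 libraries were fitted in edgeR 4.0.16 (R 4.3.3; TMM scaling, filterByExpr by group with a minimum count of 10, quasi-likelihood test, Benjamini-Hochberg adjustment over 15085 genes; biological coefficient of variation 0.0938), for each drug against the control and for the drugs against each other. On simulated counts for romidepsin against control over 14019 genes, 97.5% of 200 changed genes were recovered with 7 false calls. The simulation gave all libraries the same spread and used changes of log2 FC 1.5 only. It thus did not cover the wider spread of the control pair, smaller changes or members with few counts. CPM used TMM factors, and RPKM divided them by the summed exon length in GENCODE 29 on GRCh38. A ratio against 0 counts used a floor of 3 counts per library, and intervals are 95%. DESeq2 1.42.0, limma 3.58.1 (voom, and on the score), other scalings and filters, the 4 libraries alone, replicate blocks and each library left out were the alternatives; the crossed and 4-library blocks were chosen after seeing the data. Figures used Python 3.11.15, pandas 2.3.3, scipy 1.17.1 and matplotlib 3.10.9.

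The members and lists were chosen with earlier results of these data known. Named by rule were the 6 largest rises and falls per drug past the test, members with opposite calls, the highest ligand and receptor per length of each system, and ROBO1 (28 genes). Chosen after their values were seen were SEMA3B, SEMA3C, SEMA3G, SEMA4D, SEMA4F, SEMA5A, SEMA6C, DCC, NTN1, the plexins other than PLXNC1, EFNA2, EFNA5, EPHB2, EPHB3, EPHB4 and the named pathway and marker genes. Each was described with the fit across all genes. Results for 1 further marker list are not reported here.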

Additional observations from a re-analysis of the deposited data

How the results depend on the processing

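Having 2 libraries per group, with a control pair that differed more than any other, and 1 cell line limits these results, and several members had few counts. The counts of members that rose or fell were recomputed under each alternative, and the cause of a change was not tested. With limma on the authors' quantile-normalized score, romidepsin raised 2 and lowered 0 members, quisinostat lowered 2, mivebresib lowered 10, quisinostat exceeded romidepsin in 15, and mivebresib lay below romidepsin in 13. A minimum mean CPM of 5, which tests fewer genes, gave 21 raised by quisinostat (11 past a log2 FC of 1.5), 5 raised by mivebresib past 1.5, 18 higher with quisinostat than with romidepsin and 16 lower with mivebresib than with quisinostat. The single fall with romidepsin, NTN4, went to 0 under DESeq2, library size, upper-quartile factors, no filter, the CPM minimum and the 4 libraries alone. Romidepsin rises past 1.5 numbered 1 under DESeq2, the CPM minimum and the 4 libraries, and 2 under library size and upper-quartile factors. Quisinostat falls numbered 3 under DESeq2 and 2 with no filter, and members lower with quisinostat than with romidepsin 5 under DESeq2 and 11 with the 4 libraries.

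Leaving out each library in turn, where the lone library is assumed to vary like the other groups, gave 9 to 28 rises and 0 to 7 falls with romidepsin (0 to 2 rises and 0 to 0 falls past 1.5), 29 to 41 and 1 to 10 with quisinostat (20 to 26 and 0 to 0 past 1.5), and 16 to 28 and 12 to 20 with mivebresib (8 to 14 and 5 to 5 past 1.5). Quisinostat against romidepsin gave 18 to 35 higher and 0 to 9 lower, mivebresib against quisinostat 7 to 15 and 23 to 27, and mivebresib against romidepsin 13 to 20 and 15 to 24. Some members with no call against the control changed sign on the log2 scale. With romidepsin, leaving out 1 library gave -3.23 to 3.71 for EPHB6, -0.13 to 0.40 for EFNA1, -0.86 to 0.58 for EPHA10 (-0.11 under limma-voom), -0.025 to 0.49 for NRP2, -0.15 to 0.45 for SLIT3 and -0.14 to 0.32 for EPHA2, while SEMA3F was at 0.020, 0.032 and 0.006 under library size, upper-quartile factors and the CPM minimum. The range was -0.49 to 0.040 for NRP2 with quisinostat and -0.39 to 0.14 for PLXNC1 with mivebresib.

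The replicate numbers are shared between groups, but no label says that they pair the libraries. Deviations of same-numbered libraries from their group means correlated at -0.162 for romidepsin and control, -0.12 for quisinostat and romidepsin, and -0.07 to 0.158 in the other comparisons. With the replicate number as a block in the fit of all libraries, the counts were 13 raised and 1 lowered by romidepsin, 34 and 3 by quisinostat, 22 and 16 by mivebresib; the falls with quisinostat, 1 without the block, were the only count to move by over 1.5 times. In the 4 libraries of a comparison, the crossed pairing gave 19 raised (1 past 1.5) and 3 lowered by romidepsin and 12 lower with quisinostat than with romidepsin, and the same-number pairing 11 raised (1 past 1.5; ROBO1 was lost), 0 lowered and 8 lower.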
